A study of Mus musculus with 6 samples.

Results

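The genes described here are 8 members of the innate RNA sensing and NF-kB signalling pathways, Ddx58, Trim14, Samd9l, Irf5, Ripk2, Map3k7, Otulin and Nsmaf. They were chosen by name, with earlier results of these data known. Each matched 1 row of the deposited table by its Ensembl identifier without the version, so that 8 of 53647 rows were used. All 8 passed the filter on low values (a mean of at least 10) and were among the 8127 features tested. The study sequenced RNA from D2.OR, a line of mouse mammary tumour cells known for staying dormant, to compare cells depleted of SLX4IP, a partner of the nuclease scaffold SLX4, with control cells. Control cells carried a lentiviral non-targeting hairpin (Scram, n = 3) and the others a lentiviral hairpin against SLX4IP (shSLX4IP, n = 3). Both groups had been selected with puromycin and grown for 7 days on Cultrex, a basement membrane extract, so vector, selection and culture were shared. The labels name 1 targeting hairpin. They call the 3 samples of each group biological replicates without saying which steps were done separately. The p-values thus set the group difference against the spread between these samples and do not extend to another hairpin.

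Cells detect foreign RNA with cytoplasmic helicases such as RIG-I, which signal through the mitochondrial adaptor MAVS to interferon regulatory factors and NF-kB. Receptors for tumour necrosis factor, bacterial cell wall fragments and Toll-like receptor ligands reach NF-kB by another route, in which ubiquitin chains recruit the kinase TAK1 and the IkB kinases. In mammary epithelial and tumour cells these pathways control interferon-stimulated genes, inflammatory cytokines and survival.

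Identifiers were read as genes in 4 chromosome segments, called placed here, where annotated protein-coding genes and high values coincide. Features of the mitochondrial chromosome were also counted as placed. Outside the placed regions, identifiers of genes that every cell uses, such as Actb and Eef1a1, were listed at 0 in each library. Other identifiers there held values, such as that of Vim at 39531 to 121858, but were not read as genes. All 8 genes lie in 3 of the 4 segments, on GRCm38 with the gene models of GENCODE M21. Ddx58 (ENSMUSG00000040296.16) spans chromosome 4 from 40203773 to 40239828, Trim14 (ENSMUSG00000039853.19) chromosome 4 from 46493781 to 46536141, and Nsmaf (ENSMUSG00000028245.16) chromosome 4 from 6396207 to 6454271. Ripk2 (ENSMUSG00000041135.16) lies on chromosome 4 from 16122733 to 16163647 and Map3k7 (ENSMUSG00000028284.14) on chromosome 4 from 31964097 to 32023467. Samd9l (ENSMUSG00000047735.15) covers chromosome 6 from 3372257 to 3399572 and is the first gene of its segment. Irf5 (ENSMUSG00000029771.13) is at 29526625 to 29541871 of chromosome 6, and Otulin (ENSMUSG00000046034.9) at 27542635 to 27630693 of chromosome 15. None of the 8 identifiers carried the same version as in M21, so the exons counted may differ from the annotated ones used here for lengths and overlaps.

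Scram A stood apart from Scram B and C in a way that followed exonic length. Among placed nuclear genes whose mean reached 100, its value divided by the mean of Scram B and C had a median of 1.83 in the shortest genes (exons of up to 3.39 kb) and of 0.830 in the longest (5.995 kb or more), sets of 115 or 116 genes. Results that rest on Scram A are given with and without it below. Values below are in the order A, B, C within each group. Recovered depth was 5433573 to 6693111 reads per library. In the deposited values 1 read stood for 1.46 in Scram A and for 0.796 to 0.976 in the other libraries. Features above 0 numbered 8464 in Scram A and 10548 to 11611 in the others. Slx4ip, the targeted gene, was listed at 0 in all 6 libraries (exact 2-sided permutation p = 1; 3 against 3 cannot give a p below 0.1), and its row lies outside the regions in which identifiers can be read as genes, so it gives no check of the labels.

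Of the 8 genes, 5 had a promoter window in the RefSeq table for GRCm38.p6, namely Ddx58, Samd9l, Irf5, Otulin and Map3k7. The windows of the 4 whose expression passed the test are shown, because Ddx58 and Samd9l are known interferon-induced genes and the motifs of the pathway can be looked for in them. Each run reads 5′ to 3′ on the strand of the gene, from 250 bases before the annotated start to 30 after it. Capitals mark a match to the core of the interferon-stimulated response element (GAAA, any 2 bases, GAAA), searched on both strands.
Ddx58, chr4:40239796-40240075, minus strand: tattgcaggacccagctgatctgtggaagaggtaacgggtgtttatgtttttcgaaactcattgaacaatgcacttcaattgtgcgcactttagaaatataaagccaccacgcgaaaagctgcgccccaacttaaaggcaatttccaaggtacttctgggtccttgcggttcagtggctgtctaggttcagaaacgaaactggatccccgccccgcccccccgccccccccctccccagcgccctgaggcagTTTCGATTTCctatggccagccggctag
Samd9l, chr6:3399542-3399821, minus strand: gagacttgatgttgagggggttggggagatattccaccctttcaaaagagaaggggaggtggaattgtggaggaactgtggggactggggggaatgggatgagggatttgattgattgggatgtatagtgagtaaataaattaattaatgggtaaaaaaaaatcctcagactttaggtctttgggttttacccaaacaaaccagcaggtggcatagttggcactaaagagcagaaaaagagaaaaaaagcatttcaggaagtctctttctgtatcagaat
Irf5, chr6:29526375-29526654, plus strand: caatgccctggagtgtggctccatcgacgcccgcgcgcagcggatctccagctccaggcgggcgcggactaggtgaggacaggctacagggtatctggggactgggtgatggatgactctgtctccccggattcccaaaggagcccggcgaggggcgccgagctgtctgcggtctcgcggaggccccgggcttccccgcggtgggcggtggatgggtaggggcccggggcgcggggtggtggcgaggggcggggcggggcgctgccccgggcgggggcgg
Otulin, chr15:27630664-27630943, minus strand: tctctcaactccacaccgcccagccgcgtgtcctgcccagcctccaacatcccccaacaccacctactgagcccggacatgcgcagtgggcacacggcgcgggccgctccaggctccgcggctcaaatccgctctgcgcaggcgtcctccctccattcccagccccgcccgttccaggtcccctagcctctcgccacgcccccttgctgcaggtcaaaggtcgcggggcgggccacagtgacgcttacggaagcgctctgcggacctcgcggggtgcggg
The core was found in 1 of the 5 member windows, that of Ddx58, where it is written on the other strand and begins 2 bases after the start. It was held by 3.44% of all 32851 listed windows of full length (to 50 bases after the start). The looser NF-kB-like pattern (GGG, any 5 bases, CC, on either strand) was found in 4 of the 5 windows, all but that of Ddx58, and in 50.8% of all windows. Matches of this pattern on one strand can overlap those on the other. The windows differed in base composition, with 41.4% G and C in Samd9l, 53.6% in Ddx58, 70.4% in Otulin and 74.6% in Irf5.

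The 4 genes grouped here under RNA sensing or interferon response rose in the SLX4IP-depleted cells. Of the 4 grouped under NF-kB signalling, 1 fell (Otulin) and 3 did not pass the test. The grouping does not separate genes that promote signalling from genes that restrain it. By limma on log2(value + 1), adjusted over all 8127 features at a threshold of 0.05, 4 of the 8 genes were higher in shSLX4IP (Ddx58, Trim14, Samd9l and Irf5), 1 was lower (Otulin) and 3 did not pass (Map3k7, Ripk2 and Nsmaf). Of all features 11.7% were called higher and 11.3% lower, and among the 462 placed ones 17.3% were higher and 22.9% lower. The libraries of the groups did not overlap in 7 of the 8 genes, against 53.5% of all features tested and 67.1% of placed ones. The median log2 difference (shSLX4IP minus Scram) of the 8 genes was 0.52, beside 0.25 over all features and -0.23 over placed ones. Because the 8 genes were chosen with earlier results of these data known, these comparisons are no test of the list. In bulk RNA a change in the share of a kind of cell cannot be told apart from a change in RNA per cell.

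**Figure D1:**
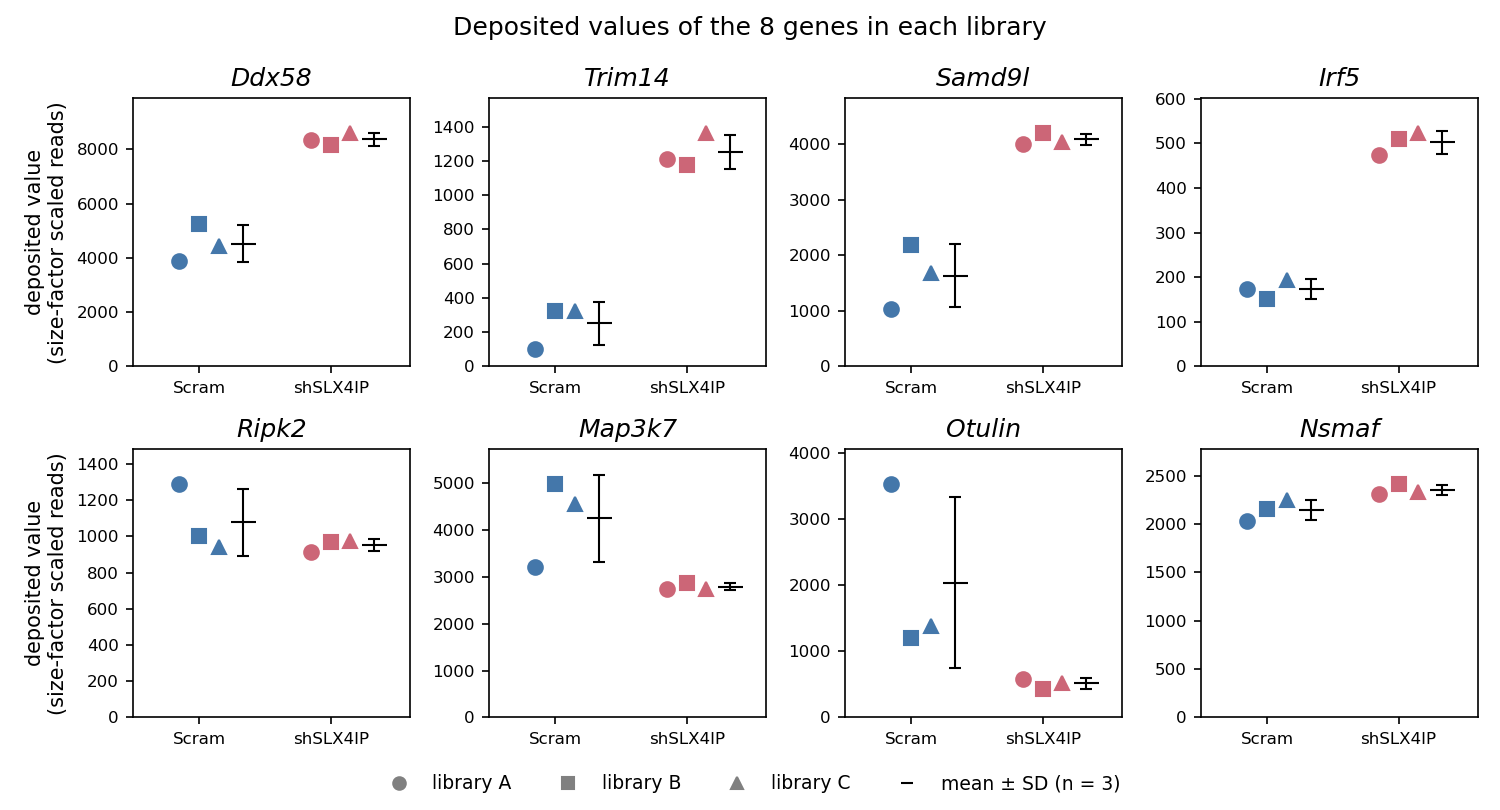
Deposited values (reads divided by a size factor per library, linear axis from 0) of the 8 genes in each Scram and shSLX4IP library, with the mean ± SD (n = 3) in black. Every shSLX4IP library lies above every Scram library for Ddx58, Trim14, Samd9l, Irf5 and Nsmaf and below for Map3k7 and Otulin, while Ripk2 overlaps.

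Ddx58 encodes RIG-I, the helicase that binds viral RNA with uncapped ends. Its deposited value was 3892, 5245 and 4437 in the controls and 8342, 8157 and 8608 in the depleted cells. All 3 depleted libraries lay above all 3 controls, and they differed from each other by less than the controls did. The mean rose from 4525 ± 681 to 8369 ± 226 (SD, n = 3 each), 1.85-fold, with a log2 difference of 0.90 (SE 0.15, limma adjusted p = 0.0102). Without Scram A the log2 difference was 0.79. The call was lost when any 1 shSLX4IP library was left out (adjusted p 0.0555 to 0.0602). Of its neighbours on the chromosome, Aco1, the cytosolic aconitase, and Topors, a ubiquitin and SUMO ligase, both fell, by 0.42 (adjusted p = 0.0474) and 0.50 (adjusted p = 0.0390) on the log2 scale, and lost their calls in 11 and 10 of 17 settings. For Aco1 the sign changed in 1 of these, after quantile normalization (0.10).

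Trim14, a tripartite motif protein that binds MAVS at mitochondria, had the largest log2 difference of the 8 genes. The controls held 104, 326 and 323, and the depleted libraries 1208, 1177 and 1362. The depleted libraries were thus all well above the controls, among which Scram A was the lowest, with 71 recovered reads. The mean rose from 251 ± 127 to 1249 ± 98.9 (log2 difference 2.48, SE 0.48, limma adjusted p = 0.0184). Against Scram B and C alone the ratio of means was 3.85 in place of 4.98, and the log2 difference was 1.94. The call was lost without any 1 shSLX4IP library (adjusted p 0.0758 to 0.0827). Of the exonic bases of Trim14, 31.3% overlap exons of Nans, a sialic acid synthase gene on the other strand. Nans was at 11974, 5017 and 5736 in Scram and 3110, 3041 and 2936 in shSLX4IP, the opposite order to Trim14 between groups, and did not pass (log2 difference -1.21, adjusted p = 0.0546). It passed as lower in 9 of 17 other settings, including that without Scram A (-0.82, adjusted p = 0.00176). Coro2a, the neighbour on the other side and an actin-binding protein gene, did not pass either (adjusted p = 0.0572), but did without Scram A (log2 difference -0.62, adjusted p = 0.0329) and in 4 further settings. How much the overlap with Nans adds to Trim14 was not tested.

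Samd9l is an interferon-induced gene whose product restrains virus replication and cell growth. Its controls read 1038, 2182 and 1683, against 4005, 4198 and 4044 after depletion. Again no library of one group reached the other, and Scram A was the lowest. The mean rose from 1634 ± 573 to 4082 ± 102, 2.50-fold (log2 difference 1.38, SE 0.28, limma adjusted p = 0.0223), with a log2 difference of 1.09 without Scram A. The call was lost without Scram C (adjusted p = 0.0643) or any 1 shSLX4IP library (0.0867 to 0.0929). No annotated exon of another gene overlaps it, and the next protein-coding gene, Hepacam2, was between 0 and 13.2.

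Irf5 encodes the interferon regulatory factor that acts below Toll-like receptors to switch on inflammatory cytokine genes. It was low in both groups, at 174, 150.4 and 194 in Scram and 474, 509.6 and 523 in shSLX4IP, and the groups stood clearly apart. The mean rose from 173 ± 21.9 to 502 ± 25.5, 2.90-fold (log2 difference 1.54, SE 0.19, limma adjusted p = 0.00431). Scram A gave 1.01 times the mean of Scram B and C, and the log2 difference without it was 1.55. This was the one of the 5 calls that held in all 17 other settings, with an adjusted p of at most 0.0280. Of its exonic bases 14.1% overlap Tnpo3, a nuclear import receptor gene on the other strand. Tnpo3 went from 6413 ± 655 to 7577 ± 267, which did not pass (log2 difference 0.25, adjusted p = 0.201; -0.044 with the length trend removed). The part of that overlap in Irf5 was not tested.

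Otulin, grouped under NF-kB signalling, was lower. It encodes the deubiquitinase that cleaves linear ubiquitin chains, the chains on which the IkB kinase complex assembles. Control libraries held 3532, 1197 and 1389, and depleted ones 582, 431 and 527. The controls were all above the depleted libraries, and Scram A was far above Scram B and C. The mean fell from 2039 ± 1296 to 514 ± 76.4 (log2 difference -1.82, SE 0.44, limma adjusted p = 0.0353). The ratio of Scram to shSLX4IP was 3.97 with Scram A and 2.52 without it, and the log2 difference without it was -1.34 (adjusted p = 0.00335). With the trend of each library with exonic length removed it was -1.44. Otulin lost its call without Scram C (adjusted p = 0.0705), without any 1 shSLX4IP library (0.105 to 0.131) and by limma without the intensity trend (0.0515). Its gene body overlaps that of Ank, a membrane protein of pyrophosphate transport, but no annotated exons do. Ank rose from 1505 ± 25.9 to 4209 ± 142 (log2 difference 1.48, adjusted p = 0.000914), in the opposite direction. Otulinl, the adjoining relative of Otulin, was listed at 0 in all 6 libraries.

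Map3k7 encodes TAK1, the kinase that activates the IkB kinases and the stress-activated kinases. Its values were 3214, 4988 and 4569 in control and 2749, 2881 and 2749.8 in depleted libraries. All controls were above the depleted libraries, with Scram A the nearest to them. The means were 4257 ± 927 and 2793 ± 75.8, and the difference did not pass (log2 difference -0.58, 95% interval -1.06 to -0.10, limma adjusted p = 0.0831). It passed without Scram A (log2 difference -0.77, adjusted p = 0.00132), with the length trend removed (-0.65, adjusted p = 0.00569) and with DESeq2 on recovered reads (adjusted p = 0.00673). After quantile normalization the log2 difference was -0.078. The next gene, Bach2, a transcriptional repressor of lymphocytes, rose from 150 ± 47.6 to 796 ± 108 (adjusted p = 0.00415).

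Ripk2, the kinase that links the NOD receptors for bacterial cell wall fragments to NF-kB, was the one gene of the 8 whose groups overlapped. It was at 1290.1, 1003 and 943 in Scram and 912, 969 and 973 in shSLX4IP. Scram A was the highest, and the others lay close together. The log2 difference was -0.17 (95% interval -0.60 to 0.26, limma adjusted p = 0.487), and -0.033 without Scram A. Its neighbour Osgin2 fell from 854 ± 161 to 447 ± 56.8 (adjusted p = 0.0289), and the call did not hold in 6 of 17 settings.

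Nsmaf encodes FAN, the adaptor that couples the tumour necrosis factor receptor to neutral sphingomyelinase. It was at 2035, 2155 and 2243 in Scram and 2315, 2413 and 2327 in shSLX4IP. The groups did not overlap, but the step between them was small. The log2 difference was 0.13 (95% interval -0.16 to 0.43, limma adjusted p = 0.425), and -0.014 with the length trend removed. Of its exonic bases 0.932% overlap Sdcbp, the syntenin gene on the other strand, for which means of 8183 ± 684 in Scram and 6620 ± 374 in shSLX4IP gave a limma adjusted p = 0.122, and 0.0316 without Scram A (log2 difference -0.34).

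**Figure D2:**
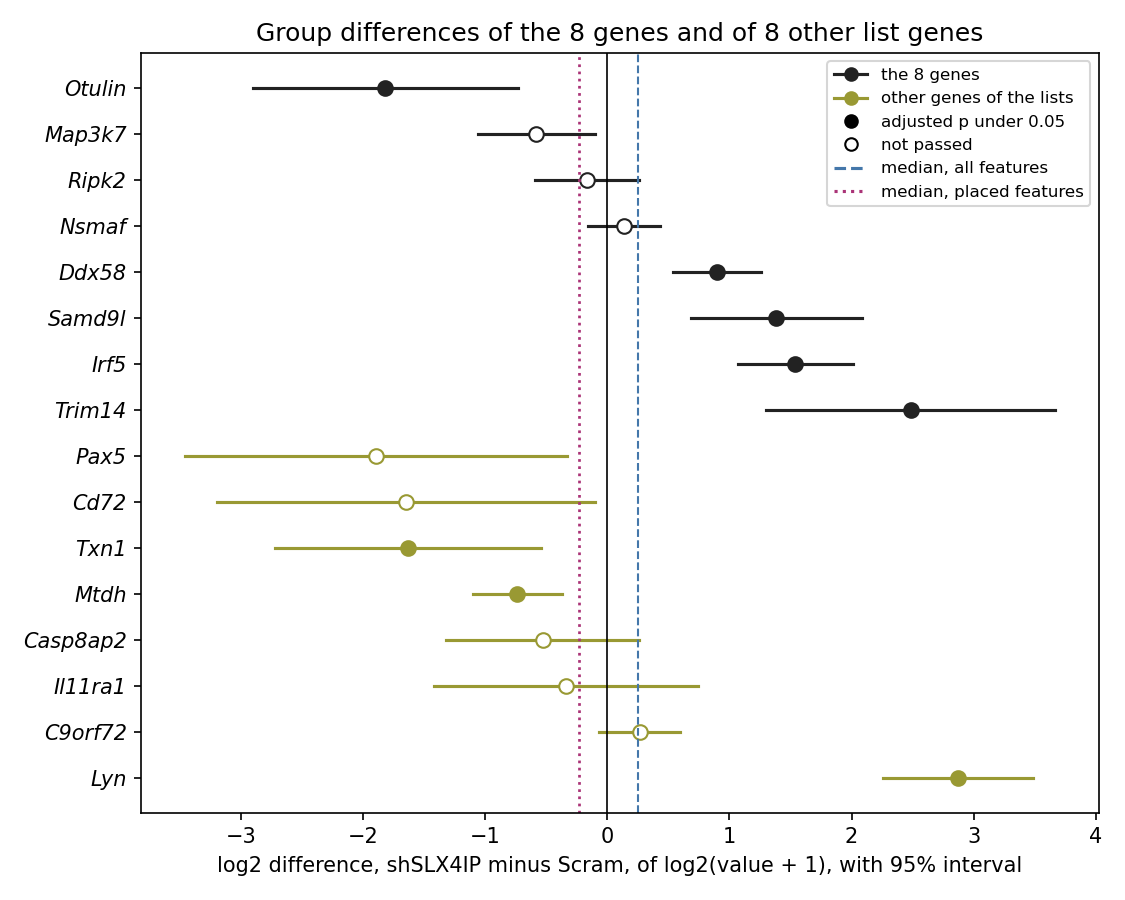
Log2 difference (shSLX4IP minus Scram, of log2(value + 1)) with its 95% interval for the 8 genes and for the 8 other list genes that were placed and tested. Filled points have an adjusted p under 0.05, and the vertical lines mark the medians of all features (0.25) and of placed features (-0.23). Ddx58, Samd9l, Irf5 and Trim14 lie to the right of both medians and Otulin to the left.

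The median of all features depends on the scaling. Quantile normalization moved it from 0.25 to -0.0028 and that of placed features from -0.23 to 0.06. Under it the log2 difference of Ddx58 was 1.42, that of Samd9l 1.77, that of Trim14 2.48, that of Irf5 1.48 and that of Otulin -1.58, and each of these kept its call. Relative to the median of all features in the main test, Ddx58 stood 0.65, Samd9l 1.14, Irf5 1.29 and Trim14 2.23 above it on the log2 scale, and Otulin stood at -2.07.

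Set side by side per kb of exon, the levels of the 8 genes changed order. In Scram the mean deposited value per kb was 1205 ± 766 for Otulin, 663 ± 144 for Map3k7, 642 ± 96.6 for Ddx58 and 383 ± 65.8 for Ripk2. Samd9l followed at 301 ± 106, Nsmaf at 256 ± 12.4, Irf5 at 59.5 ± 7.54 and Trim14 at 57.8 ± 29.3. The libraries of neighbouring genes in that order overlapped except between Ddx58 and Ripk2 and between Nsmaf and Irf5. In shSLX4IP Ddx58 came first at 1187 ± 32.1 per kb, then Samd9l at 752 ± 18.8, Map3k7 at 435 ± 11.8 and Ripk2 at 338 ± 12.1. Otulin was at 303 ± 45.1, Trim14 at 288 ± 22.8, Nsmaf at 281 ± 6.42 and Irf5 at 173 ± 8.76 per kb. There the libraries of Ripk2 and Otulin, of Otulin and Trim14, and of Trim14 and Nsmaf overlapped, and the other neighbours in the order were apart. Otulin was at 2086 per kb in Scram A against 707 and 820.5 in the other 2 controls, and in Scram B it was below Map3k7, at 777, and Ddx58, at 744.

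Relative to the mean, the control libraries varied more than the depleted ones in all 8 genes. The coefficient of variation (SD over mean) had a median of 19.5% in Scram and 3.15% in shSLX4IP over the 8 genes. It was 28.6% and 7.88% over placed features, and 50.1% and 14.7% over all features tested. Among the 8 genes the position of Scram A went in part with exonic length. Otulin, with 1.69 kb of exon, was at 2.73 times the mean of Scram B and C, and Ripk2, with 2.82 kb, at 1.33 times. Irf5, with 2.905 kb, also belonged to the shortest genes, whose median was 1.83, but was at 1.01 times. Map3k7, at 6.42 kb, was at 0.673 times, Ddx58, at 7.05 kb, at 0.804 times and Nsmaf, at 8.37 kb, at 0.926 times. Trim14, of 4.34 kb, and Samd9l, of 5.43 kb, were lower still, at 0.321 and 0.537 times, where placed genes of 3.39 to 5.94 kb had a median of 0.986. With the length trend removed the 4 higher genes kept their calls, with log2 differences of 0.80 for Ddx58, 2.56 for Trim14, 1.39 for Samd9l and 1.78 for Irf5.

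**Figure D3:**
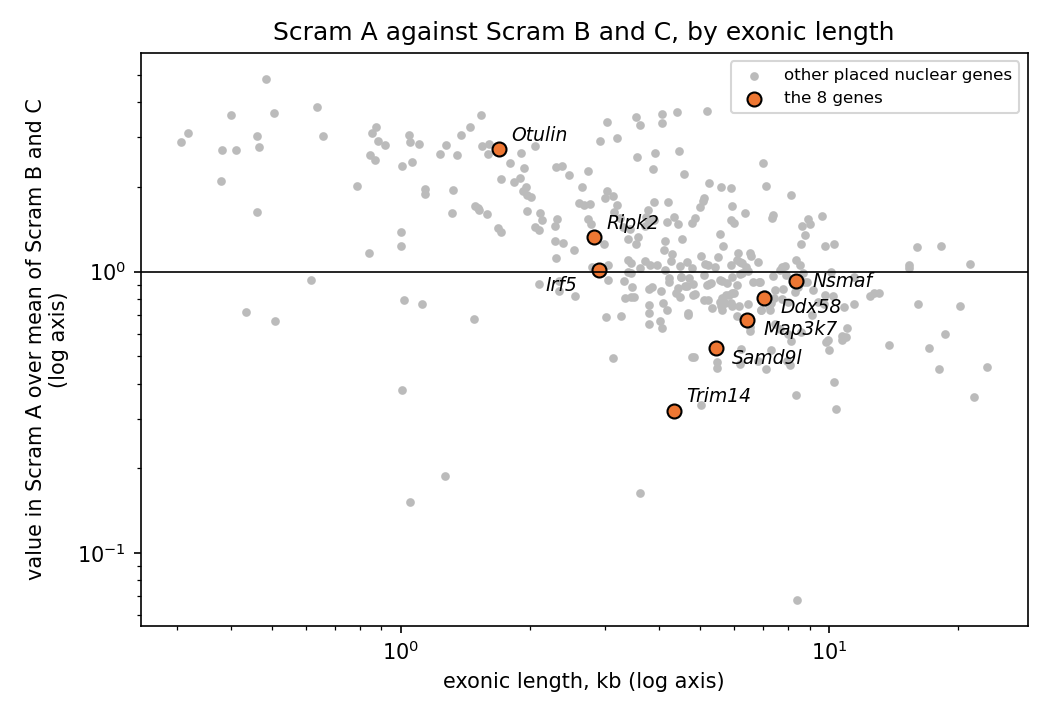
Value in Scram A divided by the mean of Scram B and C (log axis) against exonic length in kb (log axis) for placed nuclear genes whose mean reached 100, the 8 genes in orange. Otulin, the shortest of the 8, lies at 2.73 and Trim14 at 0.321, and the line marks equal values.

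The rest of the pathway could be read only in part. Lists of RNA sensing, interferon response, NF-kB signalling, NF-kB target, and cytokine and immune cell genes named 112 genes with a row, of which 21 were placed and 16 tested, the 8 genes included. Leaving out the 8 genes, 1 of the 8 other tested genes was higher (Lyn), 2 were lower (Mtdh and Txn1) and 5 did not pass, beside 17.3% higher and 22.9% lower among placed features. Their median log2 difference was -0.63, against 0.52 for the 8 genes and -0.23 over placed features. Of 19 listed NF-kB target genes, among them Cxcl1 and Il6, none was placed, so the output of the pathway was not analysed here. The NF-kB signalling list had 7 placed genes, all tested, of which Otulin, Mtdh and Txn1 fell and 4 did not pass, with a median log2 difference of -0.58. Mtdh, a coactivator of NF-kB, was at 7969, 7625 and 7457 in Scram and 5168, 3875 and 4859 in shSLX4IP (log2 difference -0.74, adjusted p = 0.0202), and the call did not hold in 6 of 17 settings. Txn1, thioredoxin, which reduces the NF-kB subunits, read 83723, 26780.3 and 31173 in the controls and 12837 to 13936 after depletion. Its log2 difference of -1.64 (adjusted p = 0.0477) was lost as a call in 7 of 17 other settings, and lay between -1.95 and -0.95 over them. Casp8ap2, which encodes a caspase-8 binding protein, was at 1031, 2253 and 2027 in Scram and 1217, 1098 and 1170.3 in shSLX4IP. It did not pass with all libraries (log2 difference -0.53, adjusted p = 0.263) but fell without Scram A (-0.88, adjusted p = 0.00177).

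C9orf72, which limits inflammatory signalling in myeloid cells, was the one further placed gene of the RNA sensing list. It was at 1133, 1304 and 1241 in Scram and 1491, 1513 and 1408 in shSLX4IP and did not pass (log2 difference 0.26, 95% interval -0.067 to 0.59), except by DESeq2 and with the length trend removed. The interferon gene Ifnk was listed at 0 in all libraries but shSLX4IP B, where it was at 3.90.

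Among cytokine and immune cell genes, Lyn, a Src-family kinase of haematopoietic and some carcinoma cells, rose. It was at 152, 209 and 274 in Scram and 1464, 1542 and 1535 in shSLX4IP (log2 difference 2.87, SE 0.25, adjusted p = 0.00137), and it held in all 17 other settings. Il11ra1, a cytokine receptor chain, did not pass (adjusted p = 0.576) and changed sign without Scram A (0.14). As a check for immune cells, 4 of 5 fixed markers were placed. Il7r and Ccl19 were listed at 0 in all 6 libraries, so the summed value of the placed markers rests on Cd72 and Pax5, both low. That sum was 52.7 to 93.4 in Scram and 13.7 to 29.5 in shSLX4IP. Lyn and Bach2, which are not among these markers, were higher in shSLX4IP. Of the epithelial markers fixed for the labelled cell type, Krt8, Krt18, Epcam and Cdh1 were not placed and cannot be read. The same holds for the mesenchymal marker Vim. Grhl2, the one placed epithelial marker, was low, at 16.8 to 68.8 in Scram and 2.93 to 20.7 in shSLX4IP. The mesenchymal marker Col1a2 was high in Scram, at 20226 to 25022, and between 239 and 302 in shSLX4IP. Zeb1, a mesenchymal transcription factor and the other placed marker of that list, went the other way, at 349, 961 and 760 in Scram and 1442, 1484 and 1423 in shSLX4IP. The 3 libraries of each group were apart in both (exact 2-sided permutation p = 0.1, the smallest possible). The part of these shifts in the values of the 8 genes was not tested.

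**Figure D4:**
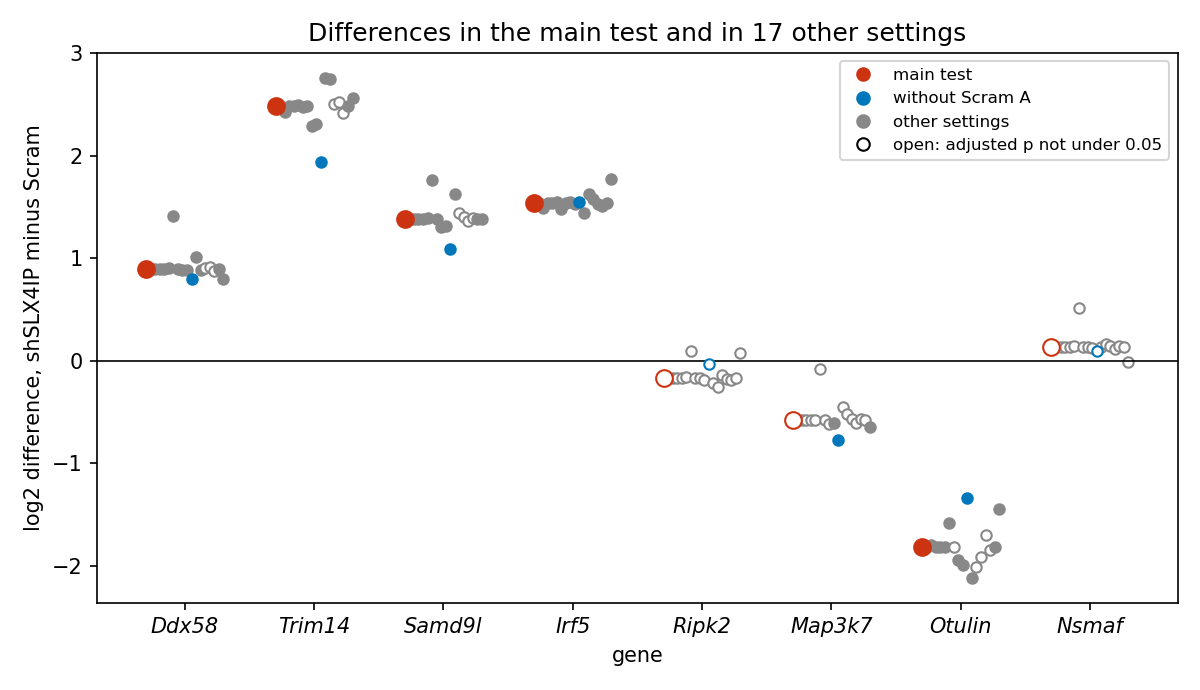
Log2 difference (shSLX4IP minus Scram) of the 8 genes in the main test (red), without Scram A (blue) and in the remaining settings (grey), filled where the adjusted p was under 0.05. Ddx58, Trim14, Samd9l and Irf5 stay above 0 and Map3k7 and Otulin below 0 in every setting shown, and open points among the called genes mark settings that lost the call.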

How the data were processed

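Poly(A) RNA from 6 D2.OR samples, 3 per group, was sequenced. The authors deposited a signal for each gene, its reads scaled by a size factor for that library, judging by file name and values. Tools listed in the submitters' processing notes are STAR 2.7.7, fastp 0.19.5, DESeq2 1.22.1 and StringTie 2.1.7, with GRCm38 as build. Their roles, the annotation release and the strand setting were not given in these sources. In each column the value of 1 read was recovered from the low values. Divided by it, 99.98% to 100% of values above 0 lay within 0.1 of a whole number, and these recovered reads were used for count tests. Column letters could not be tied to the labels' replicate numbers.

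Features with a mean of at least 10 were tested on log2(value + 1) with limma 3.58.1 (R 4.3.3), an intensity trend and Benjamini-Hochberg adjustment over all of them. The added 1 shrinks the differences of low genes, but by little for Trim14 (log2 difference 2.483, and 2.487 with a pseudocount of 0.5). Log2 differences compare means of logs, so they need not match the ratios of means and can exceed them. The test was checked on simulated reads with the same dispersion for all features and both groups. No simulated library had a trend with length, so that check does not cover the position of Scram A. Alternatives were both other pseudocounts (0.5 and 10), other filters, TMM factors, quantile normalization, limma without trend, edgeR 4.0.16, DESeq2 1.42.0, each library left out, adjustment over placed features, and removal of each library's trend with exonic length. Segments were runs of protein-coding genes in which a mean of at least 1000 scored 3 and any other -1, kept at a score of at least 30. The members and lists, and this rule, were chosen with earlier results of these data known. Named genes were the 8 members, Slx4ip, placed and tested list genes (1 listed gene is not reported here and is left out of the lists), the nearest protein-coding gene on each side of a member, and the 2 placed genes whose log2 values correlated best with each member that passed. Fixed cell markers, and Ifnk, Actb and Eef1a1, are named beside them.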

Additional observations from a re-analysis of the deposited data

How the results depend on the processing

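No setting reversed Ddx58, Trim14, Samd9l, Irf5, Map3k7 or Otulin. Of 4 higher and 1 lower member, 1 to 4 and 0 to 2 were called when 1 library was left out, with 1 higher and 0 lower without any 1 shSLX4IP library, where Otulin had an adjusted p of 0.105 to 0.131 by limma. Lower members numbered 2 by DESeq2 and 2 with the length trend removed (Map3k7 added), and 0 by limma without trend, where Otulin had 0.0515. Signs changed for Ripk2 (0.10 after quantile normalization, 0.078 with the length trend removed), Nsmaf (-0.014) and Tnpo3 (-0.044), both with the length trend removed, Aco1 (0.10) and Sdcbp (0.24) after quantile normalization, and Il11ra1 (-0.68 to 0.14 when 1 library was left out, the highest without Scram A), none of them called there. Over all features 952 were higher and 920 lower in the main test. Leaving out 1 library gave 433 to 1895 higher and 410 to 1573 lower, the highest without Scram A. Without Scram C they numbered 641 and 489. DESeq2 called 1602 and 1624, and edgeR 712 and 854. The cause of these shifts was not tested. Counts over the whole table were not made for the settings restricted to placed features. No paired analysis was possible because the columns carry letters and not the labels' replicate numbers. Depth bounds the precision of low values: Trim14 in Scram A rests on 71 reads and Irf5 on 119.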

Other observations

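The genes whose pattern over the 6 libraries was most like that of each called member were looked for among 332 placed genes, mitochondrial ones included, whose mean reached 100, after leaving out the 8 members and provisional symbols (Gm and a number, or ending in Rik), by Pearson correlation of log2 values. The 6 libraries fall into 2 groups and share a size factor each, so a high correlation mostly restates the group difference and the position of Scram A. Ddx58 was followed most closely by Bmt2, a methyltransferase-like regulator of mTORC1 (r = 0.996), and Bach2 (r = 0.994). Trim14 was nearest to Usp45, a deubiquitinase (r = 0.994), and Zfp292, a zinc finger gene (r = 0.992). Samd9l was nearest to Smo, the Hedgehog signal transducer (r = 0.999), and to Usp45 (r = 0.997).

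Irf5 was nearest to Ctnnal1, an alpha-catenin relative (r = 0.996), which was at 609, 535 and 671 in Scram and 3736, 3573 and 3670.1 in shSLX4IP, and to AI464131 (r = 0.992). Otulin was nearest to Txn1 (r = 0.992) and to Ndufb6, a complex I subunit (r = 0.990). Both were, like Otulin, highest in Scram A, with Ndufb6 reading 7464, 2267 and 2661 in controls A, B and C, and 1076 to 1324 after depletion. Ndufb6 did not pass the limma test (log2 difference -1.61, adjusted p = 0.0598), but passed as lower in 9 of 17 other settings, including that without Scram A (-1.07, adjusted p = 0.00345).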
